A study of Mus musculus with 15 samples.

Results

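Actb and Tuba1b were followed in the mouse brain, in wild type (WT) and at 4 ages of APP/PS1 animals. Each gene is read by 1 custom probe printed 20 times on every array. The pair was picked by probe name and not by a cut on any measured value, though earlier results of these data were known. They are 2 of 59709 distinct probes on the array and 2 of the 15 reference gene probes that share this 20-copy layout. The Actb probe carries the RefSeq identifier NM_007393.3 and the Tuba1b probe NM_011654.2.

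Actb encodes beta-actin, a non-muscle actin that assembles into the actin filaments of the cell cortex, of axonal growth cones and of dendritic spines. Tuba1b encodes an alpha-tubulin, which pairs with beta-tubulin to build the microtubules that shape axons and dendrites and carry cargo along them. Both genes are active in most cell types and are often used as reference genes, against which other transcripts are measured. Alpha-tubulin and actin genes have close relatives (Tuba1a and Tuba1c, Actg1), and whether these probes also bind their transcripts was not tested, so each value may hold signal from more than 1 gene.

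APP/PS1 mice carry transgenes that make them a model of Alzheimer's disease. Total RNA from flash-frozen brains was measured on Agilent arrays with a single dye, Cy3. The labels describe 15 samples in 5 groups of 3: WT, and APP/PS1 at 1, 3, 6 and 9 months, all of C57BL background. The sex given is 1 male, always replicate 1, and 2 females in each group, while the design text names males. The design text gives each age its own WT controls, but the labels give the WT mice no age, so age and genotype cannot be told apart in any comparison with WT. The mouse line's promoter was not given in the sources used here. RNA of whole brain mixes cell types, so fewer cells of a type and less RNA per cell cannot be told apart.

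Scanner files of 14 arrays were used, 2 of them WT. The third WT sample had no scanner file used here and entered no comparison. Replicates 2 and 3 at 1, 3 and 6 months gave near-identical arrays: over copies of the negative probes the residuals had correlations between 0.80 and 0.83, while no correlation exceeded 0.24 among the 88 remaining pairs of arrays. Each pair with such a correlation above 0.5 was averaged and counted as 1 sample, called replicate 2 from here on. Over the 20 copies of the members themselves the deviations of a pair correlated at 0.43 to 0.98 for Actb and 0.34 to 0.93 for Tuba1b, lowest at 3 months in both, while arrays of different samples reached 0.81 and 0.73. This left 11 samples, 2 in each group and 3 at 9 months. All 9-month arrays were scanned at 354 V and no other array was, so at 9 months the effect of the scan setting and that of the group cannot be told apart. WT was scanned at 356 V, as were replicates 1 and 2 as labelled at 1, 3 and 6 months, while replicate 3 at those ages was scanned at 355 V. The share of an array's spots that were well above background was 68.1% to 82.4%, and precision is limited by how many arrays there were. Of 34 marker genes of brain, blood and other cell types, 0 matched a named probe, so the tissue label was not checked against markers here. Of a 55-gene cytoskeleton list, the 2 genes matched by name are Actb and Tuba1b themselves, so other actins, tubulins and their partners were not analysed here.

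A level is the log2 of the processed intensity minus the log2 of the array's 75th percentile, so that 0 is the brightness of that percentile. The percentile itself ran from 384 to 566 intensity units. Subtracting another single value per array moves every level on that array by the same amount, while quantile normalization and normexp background correction need not. All 280 spots of each probe were well above background and 0 were saturated. Relative to its array's saturation value, the brightest single copy reached 6.52% for Actb and 20.4% for Tuba1b. On a single array the SD of the 20 copies was 0.018 to 0.097 for Actb and 0.018 to 0.093 for Tuba1b, which puts the standard error of an array's mean at no more than 0.022 and 0.021. Between samples of one group the pooled SD was larger than this error, at 0.099 for Actb and 0.073 for Tuba1b.

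**Figure D1:**
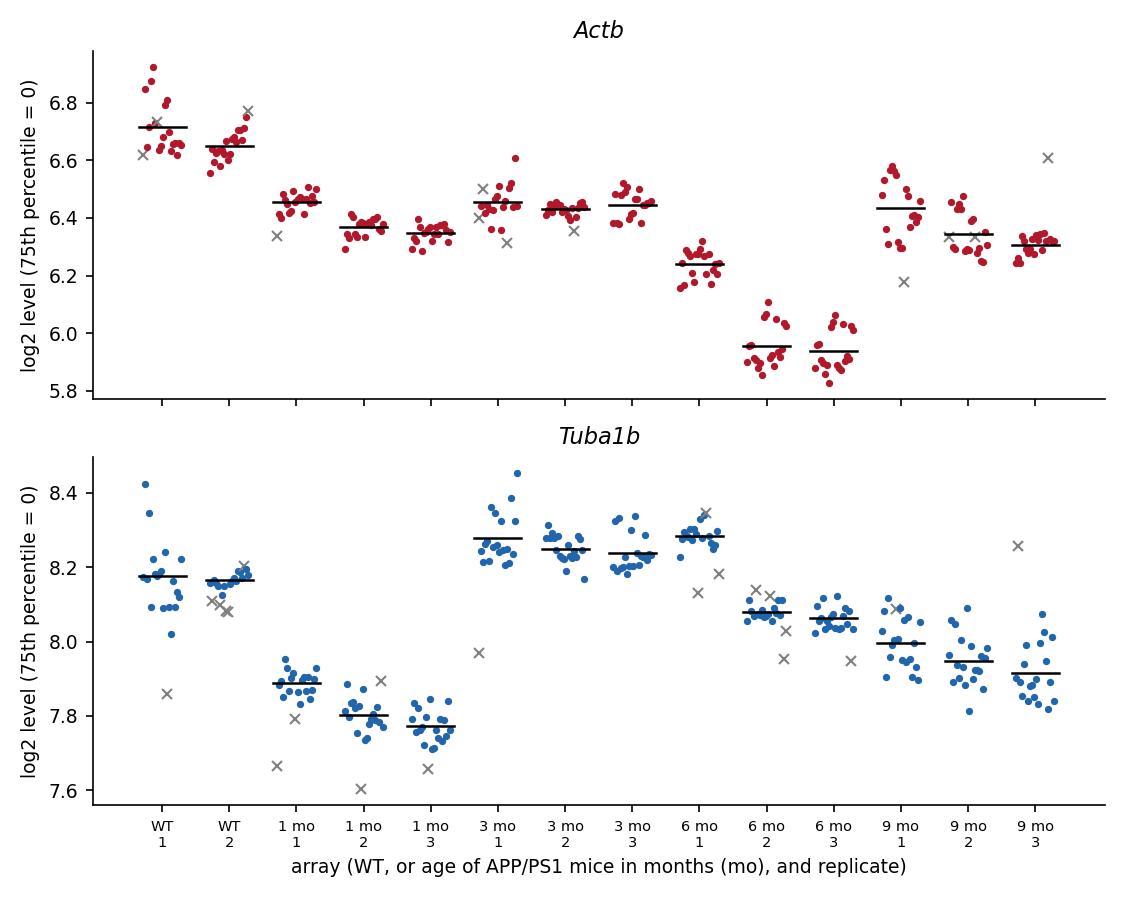
Log2 level (75th percentile of the array set to 0) of each printed copy of the Actb probe (top) and the Tuba1b probe (bottom) on each of the 14 arrays. Dots are copies used, grey crosses are spots that the scanner software marked as non-uniform or outlying, and lines are the array means; the copies of one array spread by an SD of at most 0.097.

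Actb had the highest mean level in WT and the lowest in APP/PS1 mice at 6 months. The WT levels were 6.72 and 6.65. The levels were 6.46 and 6.36 at 1 month, and 6.46 and 6.44 at 3 months. At 6 months they were 6.24 and 5.95, and at 9 months 6.43, 6.35 and 6.31. After this scaling all 9 APP/PS1 samples lay below both WT samples, and both 6-month samples lay below every other sample. With no scaling neither held. The 9-month samples (15.37, 15.40 and 15.33) were then above the lower WT sample (15.32). The 6-month samples (15.04 and 15.09) then overlapped those at 3 months (15.04 and 15.10). The group means ± SD ran from 6.68 ± 0.047 (n = 2) in WT through 6.45 ± 0.012 (n = 2) at 3 months, 6.41 ± 0.070 (n = 2) at 1 month and 6.36 ± 0.066 (n = 3) at 9 months to 6.09 ± 0.21 (n = 2) at 6 months. The 2 samples at 6 months were 0.29 apart in level, which was the widest gap within any group for this gene.

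Tuba1b was lowest at 1 month and highest at 3 months. The WT levels were 8.18 and 8.16. The levels were 7.89 and 7.79 at 1 month, and 8.28 and 8.24 at 3 months. At 6 months they were 8.28 and 8.07, and at 9 months 8.00, 7.95 and 7.91. After this scaling the 3-month samples lay above both WT samples, the 1-month and 9-month samples lay below them, and the 6-month samples lay on either side. The group means ± SD ran from 8.26 ± 0.025 (n = 2) at 3 months through 8.18 ± 0.15 (n = 2) at 6 months, 8.17 ± 0.0074 (n = 2) in WT and 7.95 ± 0.041 (n = 3) at 9 months to 7.84 ± 0.072 (n = 2) at 1 month. With no scaling the places of the 6-month and 9-month samples changed. The samples at 6 months (17.08 and 17.21) and at 9 months (16.93, 17.00 and 16.94) then all lay above both WT samples (16.83 and 16.83).

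**Figure D2:**
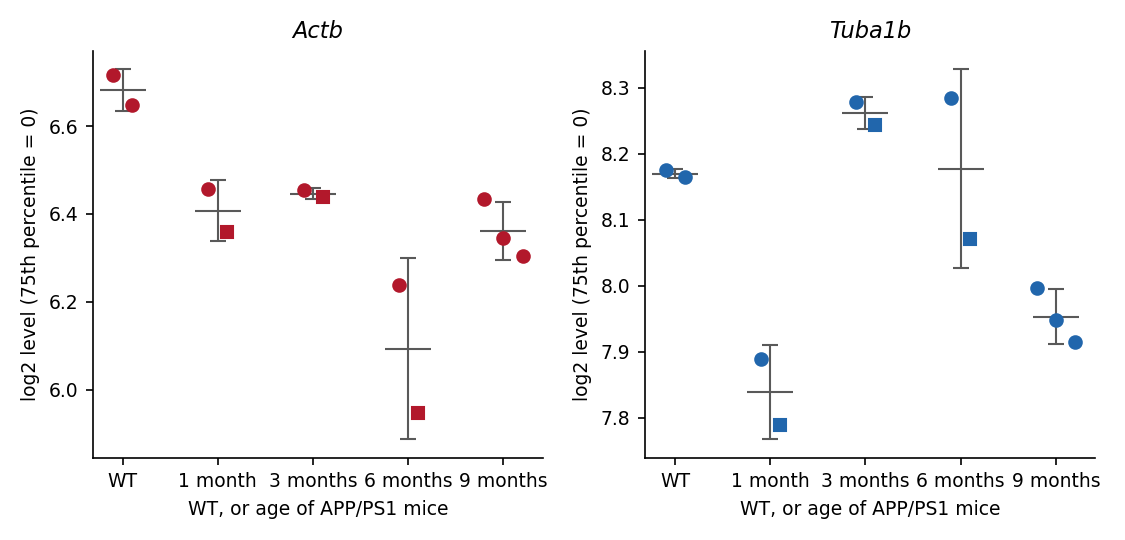
Log2 level (75th percentile of the array set to 0) of Actb (left) and Tuba1b (right) in each sample of WT and of APP/PS1 mice at 1, 3, 6 and 9 months; squares are samples made of 2 near-identical arrays, and grey bars are group means ± SD. Under this scaling all 9 APP/PS1 samples are below WT for Actb, while the Tuba1b samples at 3 months are above WT and those at 1 and 9 months are below.

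Each age was compared with WT in 1 limma fit over all 48298 probes kept, with p-values adjusted by Benjamini-Hochberg over all of them and a threshold of 0.05. The 4 comparisons share the 2 WT samples and are not independent. In each comparison of 2 groups, here and between ages, most of the 15 reference gene probes did not overlap. The share of all probes kept without overlap was not computed, so a lack of overlap is not read as a result about these genes. At 6 months Actb fell by 0.59 on the log2 scale (SE 0.11, limma adjusted p = 0.00797, 95% interval -0.84 to -0.34), 1.50-fold lower than in WT after scaling. The 2 groups did not overlap, and the fall held when any 1 sample was left out. In the same comparison Tuba1b differed from WT by 0.0075 (95% interval -0.20 to 0.22, limma adjusted p = 0.964) and the groups overlapped. Thus 1 of the 2 genes was called at 6 months, where 21% of all probes kept were called. The Actb fall was 0.43 when arrays were centred on the 13 other reference gene probes, and 0.28 with no scaling between arrays. Centred in that way Tuba1b was 0.17 above WT and not called. With no scaling Tuba1b was 0.31 above WT and called (limma adjusted p = 0.0348), as were 30.8% of all probes kept. So a Tuba1b level near that of WT held under some scalings only. With WT and 6 months alone in the fit, the Actb fall of 0.59 no longer passed (limma adjusted p = 0.134).

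At 9 months Actb fell by 0.32 (SE 0.099, limma adjusted p = 0.0428), 1.25-fold lower after scaling and with no overlap, but with no scaling between arrays the difference was 0.020 in the other direction. Tuba1b differed from WT by -0.22 (SE 0.082, 95% interval -0.41 to -0.026, limma adjusted p = 0.0843), which was not called, and its groups did not overlap. So 1 of the 2 genes was called at 9 months, against 30.9% of all probes kept. The Actb call was lost when WT replicate 1 (difference -0.29) or 2 (-0.35), either replicate at 1 month or at 3 months (-0.32 each), or replicate 1 (-0.36), 2 (-0.31) or 3 (-0.29) at 9 months was left out. It remained a call without either 6-month replicate.

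At 1 month neither gene was called, against 8.55% of all probes kept. Actb differed from WT by -0.27 (95% interval -0.53 to -0.024, limma adjusted p = 0.164) and Tuba1b by -0.33 (95% interval -0.54 to -0.12, limma adjusted p = 0.0653). Both genes were below WT in both 1-month samples. Centred on the 13 other reference gene probes these differences were -0.093 and -0.15, and with no scaling -0.027 and -0.083. With scan setting as a block Tuba1b was called (-0.32, limma adjusted p = 0.0306). That fit left out 9 months and counted every array, near-identical ones too, as a separate sample. Separate arrays without a block also gave a call (-0.35, limma adjusted p = 0.0064). At 3 months neither gene was called either, against 10.2% of all probes kept. Actb differed by -0.24 (95% interval -0.49 to 0.016, limma adjusted p = 0.218) and Tuba1b by 0.092 (95% interval -0.12 to 0.30, limma adjusted p = 0.558). The 3-month samples did not overlap WT for either gene, with Actb below and Tuba1b above. Centred on the 13 other reference gene probes the 3-month differences were -0.13 for Actb and 0.20 for Tuba1b, and with no scaling -0.27 and 0.055.

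Over the mean of the 4 ages, Actb fell by 0.35 from WT (SE 0.085, limma adjusted p = 0.0302), 1.28-fold lower after scaling, with 9 of 9 APP/PS1 samples below both WT samples. Tuba1b differed by -0.11 (95% interval -0.28 to 0.052, limma adjusted p = 0.323), with 6 APP/PS1 samples below both WT samples and 3 above both. The share of all probes kept with such orders was not computed, so neither count is read as a result about these genes. In this comparison 15.5% of all probes kept were called. Without scaling, the Actb levels at 9 months (15.37, 15.40 and 15.33) and 1 of those at 1 month (15.34) were above the lower WT level (15.32). The Actb difference was -0.14 with no scaling between arrays and -0.19 with normexp background correction, and neither was called. The call was also lost without WT replicate 1 (difference -0.32) or 2 (-0.39), without replicate 2 at 1 month (-0.34), without replicate 1 (-0.36) or 2 (-0.35) at 3 months, and without replicate 2 (-0.35) or 3 (-0.35) at 9 months.

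**Figure D3:**
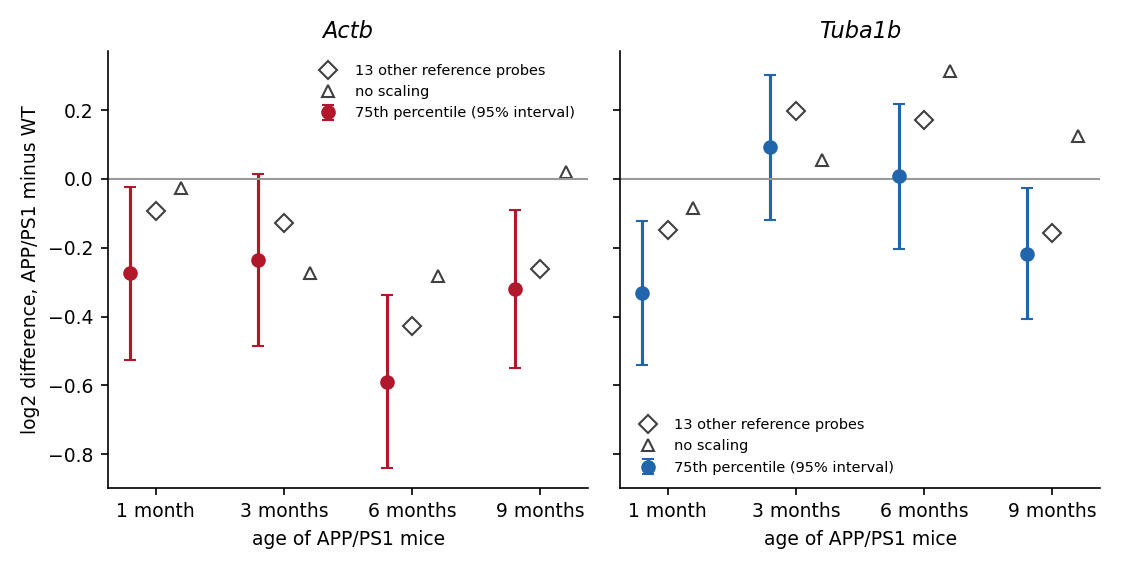
Log2 difference from WT of Actb (left) and Tuba1b (right) at each APP/PS1 age; filled points with bars are the values after 75th percentile scaling with 95% intervals, and open symbols are the same differences centred on the 13 other reference gene probes or with no scaling. Actb at 6 months is below 0 under each of the 3 scalings shown, but its size, like every other difference plotted, moves with the scaling, and at 9 months both genes are above 0 with no scaling.

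The ages were then compared with one another among APP/PS1 mice. These differences leave WT out, and pairs of comparisons that have an age in common share its samples. Tuba1b rose by 0.42 from 1 to 3 months (SE 0.090, limma adjusted p = 0.0213), 1.34-fold higher after scaling and with no overlap. Actb differed by 0.039 over the same interval (95% interval -0.21 to 0.29, limma adjusted p = 0.860) and its groups overlapped. So 1 of the 2 genes was called, against 14.5% of all probes kept. The Tuba1b difference was 0.19 with quantile normalization (limma adjusted p = 0.160) and 0.14 with no scaling (limma adjusted p = 0.326), and neither was called. The call was also lost without replicate 1 (difference 0.47) or 2 (0.37) at 1 month and without replicate 1 (0.41) or 2 (0.44) at 3 months.

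From 1 to 6 months Tuba1b rose by 0.34 (SE 0.090, limma adjusted p = 0.0327), 1.26-fold, with no overlap. Actb differed by -0.31 over the same ages, and its groups did not overlap either (95% interval -0.57 to -0.063, limma adjusted p = 0.0791). That Actb difference was called with labelled sex as a block (-0.31, limma adjusted p = 0.0458). With scan setting as a block it was called too (-0.35, limma adjusted p = 0.0143), but over separate arrays and without 9 months. Separate arrays without a block also gave a call (-0.35, limma adjusted p = 0.0050). Among all probes kept, 22.2% were called between these ages. The Tuba1b difference was 0.19 and not called with quantile normalization (limma adjusted p = 0.141). Among the fits with 1 sample left out, its call remained only without replicate 2 at 6 months, with a difference of 0.45. It was lost without replicate 1 at 6 months (0.23), without replicate 1 (0.39) or 2 (0.29) at 1 month, and, with the difference at 0.34 in each case, without either WT replicate, either 3-month replicate or any 9-month replicate.

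From 3 to 6 months neither gene was called, against 13.2% of all probes kept. Actb differed by -0.35 with no overlap (95% interval -0.60 to -0.10, limma adjusted p = 0.0749), and Tuba1b by -0.084 with overlap (95% interval -0.29 to 0.13, limma adjusted p = 0.627). Actb was called with scan setting as a block (-0.40, limma adjusted p = 0.0113), with labelled sex as a block (-0.35, limma adjusted p = 0.0456) and in 7 of 29 alternatives in all. With no scaling the differences were -0.0094 for Actb and 0.26 for Tuba1b. In the single arrays scanned at 355 V, 1 per group and so without a test, the Actb difference between 6 and 3 months was -0.51 and that of Tuba1b -0.18. The 355 V arrays gave 0.098 for Actb and 0.47 for Tuba1b between 3 and 1 months, and -0.41 and 0.29 between 6 and 1 months.

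The 9-month samples differ from all others in scan setting as well as in age. From 3 to 9 months Tuba1b fell by 0.31 (SE 0.082, limma adjusted p = 0.0274), 1.24-fold lower with no overlap, but with no scaling between arrays the difference was 0.069 in the other direction. Actb differed by -0.085 between these ages (95% interval -0.31 to 0.14, limma adjusted p = 0.562), with no overlap, and with no scaling it was called in the other direction (0.29, limma adjusted p = 0.0237). Among all probes kept, 28.9% were called. The Tuba1b call was lost without replicate 1 (difference -0.29) or 2 (-0.33) at 3 months and without replicate 1 (-0.33), 2 (-0.31) or 3 (-0.29) at 9 months.

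Between 6 and 9 months neither gene was called, against 22.6% of all probes kept. Actb was 0.27 higher in value at 9 months (95% interval 0.039 to 0.50, limma adjusted p = 0.0920), and the Tuba1b difference was -0.22 (95% interval -0.42 to -0.033, limma adjusted p = 0.0920). Neither gene's groups overlapped. With labelled sex as a block Actb was called (0.29, limma adjusted p = 0.0459). Between 1 and 9 months neither was called, against 32.8% of all probes kept. The differences were -0.046 for Actb (95% interval -0.27 to 0.18, limma adjusted p = 0.768), with overlap, and 0.11 for Tuba1b (95% interval -0.078 to 0.31, limma adjusted p = 0.341), without. With quantile normalization both were called lower at 9 months, Actb by -0.30 (limma adjusted p = 0.0187) and Tuba1b, against its direction here, by -0.27 (limma adjusted p = 0.0250).

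In the order of Actb means, from WT down to 6 months, no neighbouring groups differed by a called amount: WT and 3 months, 3 months and 1 month, 1 month and 9 months, and 9 and 6 months each missed the threshold. In the order of Tuba1b means, the same held for 3 and 6 months, 6 months and WT, WT and 9 months, and 9 months and 1 month. The orders themselves moved with the scaling. Centred on the 13 other reference gene probes, Actb was again highest in WT and lowest at 6 months, while Tuba1b was lowest at 9 months. With no scaling, Actb was highest at 9 months and lowest at 6 months, and Tuba1b was highest at 6 months and lowest at 1 month.

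Whether the 2 genes changed unequally was tested on the difference Tuba1b minus Actb within each sample, from which any factor common to the whole array cancels. The levels of the 2 probes are not set against each other here, since probes differ in brightness per molecule. The difference was 1.46 and 1.52 in WT, 1.43 and 1.43 at 1 month, and 1.82 and 1.81 at 3 months. At 6 months it was 2.04 and 2.12, and at 9 months 1.56, 1.60 and 1.61. The 3-month samples lay above all WT, 1-month and 9-month samples, and the 6-month samples lay above all others. The share of other probe pairs that separate like this, or pass the tests below, was not computed. Neither is read as particular to this pair. Replicates that stood 0.29 apart in Actb level at 6 months were 0.079 apart in this difference.

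**Figure D4:**
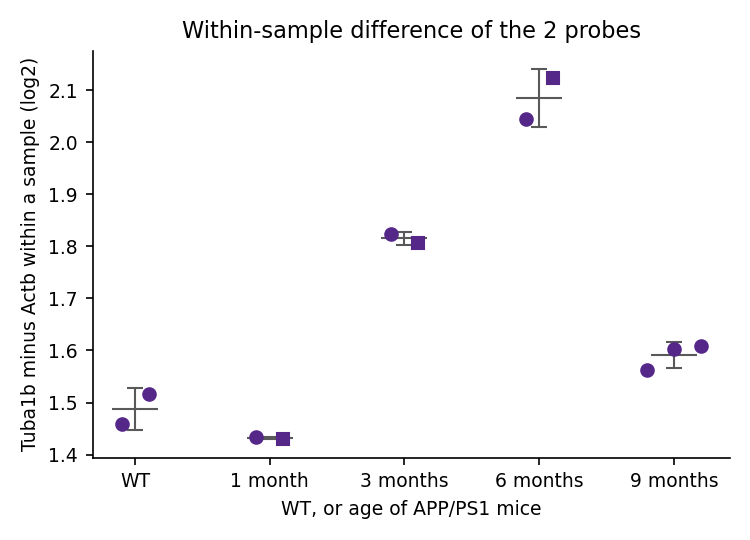
Tuba1b level minus Actb level on the log2 scale within each sample of WT and of APP/PS1 mice at 1, 3, 6 and 9 months; squares are samples made of 2 near-identical arrays and grey bars are group means ± SD. The 2 samples at 6 months (2.04 and 2.12) and the 2 at 3 months (1.82 and 1.81) stand above those of WT and of 1 and 9 months.

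At 6 months the change of Tuba1b from WT exceeded that of Actb by 0.60 (SE 0.069, 95% interval 0.44 to 0.76, limma unadjusted p = 3.35e-05, adjusted over the 11 comparisons 0.000184). At 3 months the excess was 0.33 (limma unadjusted p = 0.00166, adjusted 0.00364). Over the mean of the 4 ages it was 0.24 (limma unadjusted p = 0.00228, adjusted 0.00419). At 1 month the difference of changes was -0.056 (95% interval -0.22 to 0.10, limma p adjusted over the 11 comparisons = 0.438) and at 9 months 0.10 (95% interval -0.043 to 0.25, limma p adjusted likewise = 0.154), and neither passed.

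Adjusted p-values of the within-sample difference, here and just above, are over the 11 comparisons and not over all probes kept. They are not comparable with those of the single genes. Between ages the within-sample difference rose by 0.38 from 1 to 3 months (limma adjusted p = 0.00174), by a further 0.27 from 3 to 6 months (limma adjusted p = 0.00774), and by 0.65 from 1 to 6 months (limma adjusted p = 0.000184). It fell by 0.49 from 6 to 9 months (limma adjusted p = 0.000244) and fell by 0.22 from 3 to 9 months (limma adjusted p = 0.0110). Between 1 and 9 months it rose by 0.16 (limma adjusted p = 0.0440). The values of 6 and 3 months against WT, of 3 and 6 months against 1 month and of 9 months against 6 and 3 months passed an unadjusted 0.05 under every alternative run for them, including each sample left out. For 6 months against WT these alternatives gave 0.56 to 0.64. The rise from 1 to 9 months passed in 12 of 26 alternatives and was 0.025 with quantile normalization (limma unadjusted p = 0.691). It was also lost without either replicate at 1 month (0.16 each), either at 3 months (0.16 each), or replicate 1 (0.17), 2 (0.15) or 3 (0.15) at 9 months.

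Set among the 15 reference gene probes, Actb had the fourth largest SD over the 11 samples (0.20) and Tuba1b the fifth (0.17). B2m, a subunit of MHC class I molecules, varied most (0.52), and Rpl13a, a ribosomal protein gene, varied least (0.080). Of all probes kept, 24.9% had a smaller SD than Actb and 16.0% a smaller SD than Tuba1b. The value of each member is a mean over its copies, while probes outside the 15 were read from single spots. These SDs are thus not measured alike, and the shares do not rank how steady the genes are. At 6 months against WT, 4 of the 15 were called lower, Actb among them, where 8.45% of all probes kept were called lower, and the median difference of the 15 was -0.11, while the median over all probes kept was 0.074. At 9 months 3 were called lower, Actb among them, and 1 higher, against 13.5% and 17.4% of all probes kept. The median difference of the 15 was -0.096 against 0.046 over all probes kept. Actb had the second lowest difference of the 15 at 6 months and Tuba1b the 13th from the lowest.

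**Figure D5:**
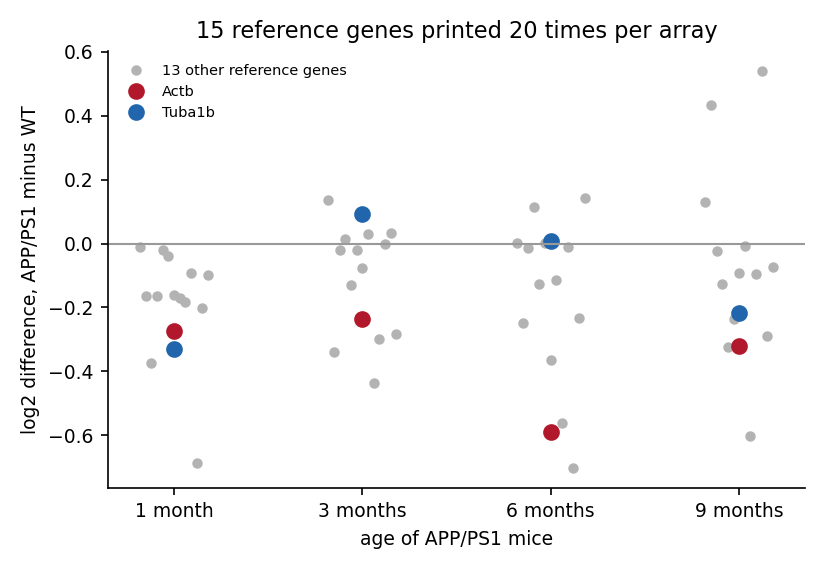
Log2 difference from WT at each APP/PS1 age for the 15 reference genes printed 20 times per array after 75th percentile scaling; Actb is red, Tuba1b is blue and the other 13 genes are grey. At 6 months Actb is second from the bottom at -0.59 and Tuba1b is near 0; values move with the scaling of the arrays.

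Among the 88 other named probes, the levels most like those of Actb over the 11 samples were those of Tfrc, the transferrin receptor that takes up iron (Pearson r = 0.90), Tsnax, which encodes the translin partner protein (0.86), and Nono, an RNA-binding protein of paraspeckles (0.78). For Tuba1b they were H2ac18, a histone H2A gene (0.81), Spry3, of the Sprouty family of signalling regulators (0.77), and Taf1a, a subunit of a factor of RNA polymerase I (0.73). Without the 9-month samples these values were 0.96, 0.88 and 0.88 for Actb and 0.88, 0.92 and 0.77 for Tuba1b. Actb and Tuba1b themselves correlated at 0.17, and Tuba1b ranked 25th in likeness to Actb. These are descriptions over samples that share arrays and a scaling factor. The Tfrc levels were 5.87 and 5.91 in WT and 5.59 and 5.45 at 6 months. Its 9-month levels of 5.92, 5.76 and 5.71 overlapped WT.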

How the data were processed

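Brain RNA of WT and APP/PS1 mice was measured on one-colour Agilent arrays. The authors' deposited intensity values come from Agilent Feature Extraction (version 10.7.1.1 per the submitters' processing notes), and the processed signal is background-subtracted, per the file headers. The deposited 0 or 1 spot marks (a further, unitless value) were used to leave out spots. A deposited value table equalled the mean local background intensity in all 14 columns compared (column medians 27.9 to 36.8), so it held no expression values; its columns were not used.

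From the intensities, log2 was taken, each array's 75th percentile subtracted, control spots left out, and copies of a probe averaged without marked spots. Probes left out for a non-uniform single spot numbered 134. The fit took the 48298 probes that were well above background on at least 3 arrays. Arrays of a group whose negative-probe residuals correlated above 0.5 were averaged. limma 3.58.1 (lmFit, eBayes; R 4.3.3) was fitted with all 5 groups, with Benjamini-Hochberg adjustment; its p-values measure the spread between these samples, which may be technical. Scripts were tested on simulated data. The normexp alternative (offset 50) used the median signal in place of the planned mean signal. Gene symbols came from RefSeq identifiers (115 probes, 89 kept). Named genes: Actb and Tuba1b, and for each the 3 named probes with the highest Pearson r; B2m and Rpl13a, the extremes of spread, were named after their values were seen. The genes, lists and settings were chosen with earlier results of these data known. Replicate numbers follow accession order and pair no samples.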

Additional observations from a re-analysis of the deposited data

Results flagged for a closer look

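For Tuba1b the change from WT differed between ages by a test of the difference itself, in which WT cancels. The change at 3 months exceeded that at 1 month by 0.42 (limma adjusted p = 0.0213). The change at 6 months exceeded that at 1 month by 0.34 (limma adjusted p = 0.0327). The change at 9 months minus that at 3 months was -0.31 (limma adjusted p = 0.0274), and the 9-month arrays had a scan setting of their own.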

How the results depend on the processing

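Of the calls above, the fall of Actb at 6 months against WT kept its direction in 29 of 29 alternatives and its call in 28. Its call at 9 months was kept in 11 of 26 alternatives and over the mean of 4 ages in 15 of 25; those of Tuba1b were kept in 18 of 29 (3 against 1 month), 12 of 29 (6 against 1) and 18 of 26 (9 against 3). "No scaling" was chosen after seeing the data. The cause of the following moves was not tested. All are log2 differences, the first age minus the second.

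With every array as a separate sample, calls were gained for Actb at 1 month (-0.29), 6 against 3 (-0.40), 6 against 1 (-0.35) and 9 against 6 months (0.32), and for Tuba1b at 1 month (-0.35), 9 months (-0.22) and 9 against 6 (-0.19), while Tuba1b at 6 months turned (-0.028). Median scaling lost Actb at 9 months (-0.41) and over the mean (-0.44) and Tuba1b 3 against 1 (0.42), 6 against 1 (0.29) and 9 against 3 (-0.32), and turned Tuba1b at 6 months (-0.11). Quantile normalization gained Tuba1b at 9 months (-0.39) and 9 against 6 (-0.46), gained Actb 6 against 1 (-0.44) and 9 against 1 (-0.30), lost Tuba1b 3 against 1 (0.19) and 6 against 1 (0.19), called Tuba1b 9 against 1 in the other direction (-0.27), and turned Actb 3 against 1 (-0.15) and Tuba1b minus Actb at 1 month (0.00040). Centring on the 13 other reference probes gained Actb 6 against 3 (-0.30) and 6 against 1 (-0.33) and Tuba1b 9 against 6 (-0.33), and turned the Tuba1b mean (0.015), Actb 3 against 1 (-0.036) and Tuba1b 9 against 1 (-0.0091). normexp lost Actb at 9 months (-0.15) and over the mean (-0.19) and Tuba1b 3 against 1 (0.38), 6 against 1 (0.35) and 9 against 3 (-0.27), and turned the Tuba1b mean (0.035). No scaling gained Tuba1b at 6 months (0.31) and Actb 9 against 6 (0.30); lost the Actb mean (-0.14) and Tuba1b 3 against 1 (0.14); and turned 9 months for Actb (0.020) and Tuba1b (0.12), the Tuba1b mean (0.10), Tuba1b 6 against 3 (0.26) and 9 against 3 (0.069), and Actb 3 against 1 (-0.25), 9 against 1 (0.047) and 9 against 3 (0.29, now called).

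Actb at 9 months was lost with the median of copies (-0.31), the copies in the upper rows of the array (-0.32, which turned Tuba1b at 6 months to -0.0076) and no filter on dim probes (-0.32), which also lost Tuba1b 6 against 1 (0.34). Requiring every array above background gained Tuba1b at 1 month (-0.33) and Actb 6 against 3 (-0.35). Tuba1b 3 against 1 was lost without the 9-month arrays (0.42), with 356 V arrays alone (0.42) and with the 2 groups alone (0.42), which also lost Actb at 6 months (-0.59) and Tuba1b minus Actb 6 against 3 (0.27); these 3 settings lost Tuba1b 6 against 1 too (0.34 in each). Scan setting as a block, over separate arrays and without 9 months, gained Tuba1b at 1 month (-0.32) and Actb 6 against 3 (-0.40) and 6 against 1 (-0.35), and turned Tuba1b at 6 months (-0.0038). Each of these moves also came with every array as a separate sample and no block. Labelled sex as a block gained Actb 6 against 3 (-0.35), 6 against 1 (-0.31) and 9 against 6 (0.29). The limma trend gained Tuba1b at 1 month (-0.33), 9 months (-0.22) and 9 against 6 (-0.22), and Actb 6 against 3 (-0.35), 6 against 1 (-0.31) and 9 against 6 (0.27).

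Leaving out each sample in turn gave, for Actb, -0.36 to -0.29 at 9 months, -0.39 to -0.32 over the mean, -0.010 to 0.088 for 3 against 1, -0.50 to -0.21 for 6 against 3, 0.12 to 0.41 for 9 against 6 and -0.095 to 0.0034 for 9 against 1. For Tuba1b it gave -0.38 to -0.28 at 1 month, -0.099 to 0.11 at 6 months, -0.24 to -0.20 at 9 months, 0.37 to 0.47 for 3 against 1, -0.19 to 0.022 for 6 against 3 and -0.33 to -0.12 for 9 against 6. Where an arm was left with 1 sample, that sample was assumed to vary like the other groups.

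Probes called over the whole array ran from 114 to 10644 at 1 month, 166 to 10431 at 3, 1506 to 16850 at 6, 9908 to 18745 at 9 months and 2911 to 14806 over the mean; and from 90 to 15679 (3 against 1), 87 to 14837 (6 against 3), 6369 to 17369 (9 against 6), 2709 to 18107 (6 against 1), 9767 to 21557 (9 against 1) and 7486 to 19835 (9 against 3). At 6 months against WT, 59.8% of called probes were higher, but 80.9% when centred on the 13 reference probes, 43.9% with median scaling, 28.2% with normexp and 90.9% with no scaling, and the median over all probes moved from 0.074 to 0.24, -0.048, -0.25 and 0.38. Centring on spike-in spots was not run, since at most 46.3% of those spots were well above background. Replicate numbers follow accession order and pair no samples, so no separate block by number was fitted. The sample labelled male is replicate 1 in every group, so the block by labelled sex, given above, is also a block of replicate 1 against the others.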

Other observations

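In every group the sample labelled male was the brightest for both genes after 75th percentile scaling (5 of 5 groups). Its array also had the lowest 75th percentile in every group, and subtracting a lower percentile raises every probe on that array. This sample was always replicate 1, and where near-identical arrays were averaged it was a single array set against their average. Label, replicate number and averaging were not told apart. The share of all probes kept with the same order was not computed. The fitted difference between the male-labelled and the female-labelled samples was 0.12 for Actb (SE 0.053, limma adjusted p = 0.623) and 0.084 for Tuba1b (SE 0.048, limma adjusted p = 0.656), and neither passed the threshold. The same contrast called 0 of all 48298 probes by limma, with 3887 at an unadjusted p under 0.05, so not passing is nothing particular to these genes. Centred on the 13 other reference gene probes, the male-labelled sample was above the others in 4 of 5 groups for each gene. With no scaling it was so in 2 of 5 groups, with differences of -0.00020 and -0.032.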
